A study of Homo sapiens with 3 samples.

Results

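The genes of 5 nuclear receptors, RXRA, RARA, RARG, RARB and VDR, were examined in LNCaP, an established androgen-responsive line derived from a metastasis of a human prostate carcinoma. The members were all regions called for H3K27ac or H3K4me1 that overlapped 1 of 5 hg19 windows of 50 to 230 kb, each named after its receptor gene. The genes were selected on knowledge of earlier results from these lists, among them region widths and covered lengths, so those values are given as a description. The windows held 30 of the 71077 H3K27ac regions and 100 of the 200812 H3K4me1 regions. The groups were ChIP of H3K27ac (1 library) and ChIP of H3K4me1 (1 library), both from LNCaP cells for which the labels give no treatment. An input library (1 library, no antibody) and the normal prostate cells and PC3 line named in the series design were not analysed here. Acetylation of histone H3 at lysine 27 (H3K27ac) marks enhancers and promoters in use, and monomethylation at lysine 4 (H3K4me1) marks enhancers whether in use or only primed. With 1 library per mark there is no replicate spread and no test. Depth is unknown, since the files give regions and no reads, and a stretch without a region cannot be read as a stretch without the mark.

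The receptors are ligand-activated transcription factors. RARA, RARG and RARB bind retinoic acid and VDR binds calcitriol, the hormonal form of vitamin D, and each binds DNA as a heterodimer with a retinoid X receptor such as RXRA. Heterodimers of RAR and RXR bind direct repeats of a short motif, and the promoter of RARB holds the textbook example, through which retinoic acid induces RARB itself. RARB is known as a gene silenced in prostate cancer, and retinoids and calcitriol slow the growth of LNCaP cells in culture.

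A pair of promoters is shown from RefSeq (GRCh38.p14), each from 250 bases before to 50 bases after a start site. The RARB promoter is shown for its response element, which stands in capitals. The RXRA promoter is shown as the one richest in CpG among the 10 promoters of these genes, with each CpG in capitals.
RARB (GRCh38.p14, chr3:25428013-25428312, plus strand): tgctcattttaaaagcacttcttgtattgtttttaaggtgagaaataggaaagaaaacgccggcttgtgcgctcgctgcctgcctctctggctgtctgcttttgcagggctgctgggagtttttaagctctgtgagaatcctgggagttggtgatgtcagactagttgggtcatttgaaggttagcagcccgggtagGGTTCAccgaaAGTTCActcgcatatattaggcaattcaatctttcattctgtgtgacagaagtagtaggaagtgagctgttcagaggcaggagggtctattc
RXRA (GRCh38.p14, chr9:134326205-134326504, plus strand): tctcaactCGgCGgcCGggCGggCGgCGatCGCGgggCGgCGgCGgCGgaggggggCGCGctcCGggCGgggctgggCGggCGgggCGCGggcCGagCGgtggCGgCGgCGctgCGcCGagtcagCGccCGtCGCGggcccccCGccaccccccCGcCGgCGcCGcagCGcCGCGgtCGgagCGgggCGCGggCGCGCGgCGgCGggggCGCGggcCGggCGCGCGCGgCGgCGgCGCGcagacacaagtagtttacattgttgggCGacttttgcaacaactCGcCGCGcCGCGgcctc
The motif searched was a direct repeat of hexamers that begin with AG or GG, go on with G or T and end in TCA, in any combination and with 1 to 5 letters between them, on both strands. The RARB match, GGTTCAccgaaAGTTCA, has 5 letters between the hexamers and begins 53 bases before the start. It was the only match among the 10 promoters, which came from 4 of the 5 genes. Of the 35116 promoters in the table, 31 (0.0883%) held a repeat with 5 letters between the hexamers and 144 (0.41%) held one with any spacing. The RXRA promoter held 65 CpG, a number that 11 promoters of the table reached, itself included, and the RARB promoter shown held 7, against a median of 14. Build GRCh38 differs from that of the regions, so these promoters were not placed in the windows, and no region is described as a promoter. The RARB starts in the table spread over 629 kb of GRCh38, far more than the 230 kb RARB window, so the window cannot hold every RARB start. The promoter at the first of these starts held 33 CpG.

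The share of each window that was marked differed widely among the receptor genes. By this share RXRA, the shared heterodimer partner, lay in the most heavily marked window, and RARA and RARG followed. VDR and RARB had the smallest shares for both marks. In kb rather than percent, the RARG window, the shortest, was the lowest for both marks (H3K27ac 5.30 kb, H3K4me1 24.0 kb). H3K27ac covered 26.0% of the RXRA window, 15.1% of the RARA window, 10.6% of the RARG window, 3.07% of the RARB window and 7.71% of the VDR window, against 4.65% of all chromosome spans. The RARB window was thus the only 1 of the 5 with less H3K27ac than the whole list gives, at 0.659 times that level, while the RXRA window stood at 5.59 times. H3K4me1 covered 63.0% of the RXRA window, 49.7% of the RARA window, 48.0% of the RARG window, 13.3% of the RARB window and 22.1% of the VDR window, against 9.45% of all spans. For H3K4me1, RARB stood above the level of the whole list, at 1.40 times. The level of a window's own chromosome ran from 4.10% (chromosome 9, RXRA) to 7.63% (chromosome 17, RARA) for H3K27ac. For H3K4me1 it ran from 9.16% to 18.4% on the same chromosomes, so RARA lay on a chromosome with much of both marks. By percent cover both marks put the windows in the same order, with RARA and RARG close in H3K4me1.

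**Figure D1:**
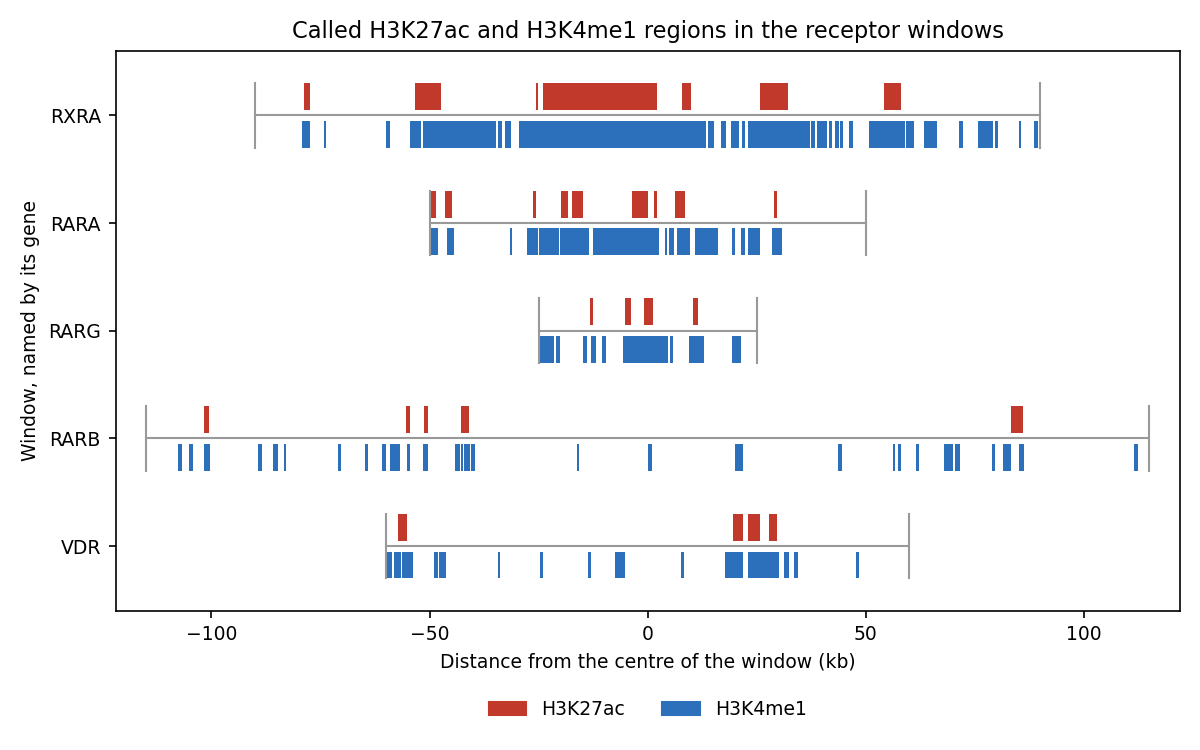
Every called H3K27ac region (red, above the line) and H3K4me1 region (blue, below the line) in the 5 windows, drawn to scale against the distance from the window's centre in kb, with vertical grey bars at the window ends. The RXRA window holds a single H3K27ac region of 26.3 kb near its centre, and the RARB window has a stretch of 124 kb without H3K27ac.

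Set among all non-overlapping tiles of the same width, taken from the start of each chromosome, the windows fell in different parts of the range. The H3K4me1 cover of the RXRA window was reached by 15 of 17170 tiles of 180 kb (0.0874%) and its H3K27ac cover by 202 (1.18%). The H3K4me1 cover of the RARA window was reached by 1.01% of tiles of 100 kb, and that of the RARG window by 1.95% of tiles of 50 kb. For H3K27ac these shares were 7.31% for RARA and 14.6% for RARG. RARB was near the middle of the range for H3K27ac, with 47.1% of tiles of 230 kb at or above its cover, and near the upper quartile for H3K4me1, where 27.3% of tiles reached its 13.3% and the quartile was 14.2%. VDR lay between, with 20.9% of tiles of 120 kb for H3K27ac and 12.4% for H3K4me1. The windows were chosen with results known, so these ranks are a description. The tiles were not matched to the windows in gene content.

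The windows differed as much in how they compared with their surroundings. The RXRA window stood out from both flanks of equal width: H3K27ac covered 26.0% of the window, against 5.56% of the flank at lower coordinates and 1.14% of the flank at higher coordinates. Its H3K4me1 cover of 63.0% stood against 27.7% and 14.2% of the same flanks. The RARA window also exceeded its flanks, with 15.1% in H3K27ac against 8.70% and 7.50%, and 49.7% in H3K4me1 against 18.9% and 21.2%. The RARG window did not, with 10.6% in H3K27ac against 21.4% and 18.3% of its flanks, and 48.0% in H3K4me1 against 50.9% and 34.8%. The VDR window carried less of both marks than its surroundings, with 7.71% in H3K27ac against 15.7% and 8.96%, and 22.1% in H3K4me1 against 45.8% and 37.3%. The RARB window had less H3K27ac than its flanks, 3.07% against 5.96% and 6.59%, but more H3K4me1, 13.3% against 8.85% and 8.74%. The window bounds affect the cover: with 50 kb added at both ends, H3K27ac covered 16.8% of the RARG window and 12.2% of the RARA window, and H3K4me1 covered 48.8% of the RXRA and 34.1% of the RARA window. The flanks were not recomputed with these bounds.

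**Figure D2:**
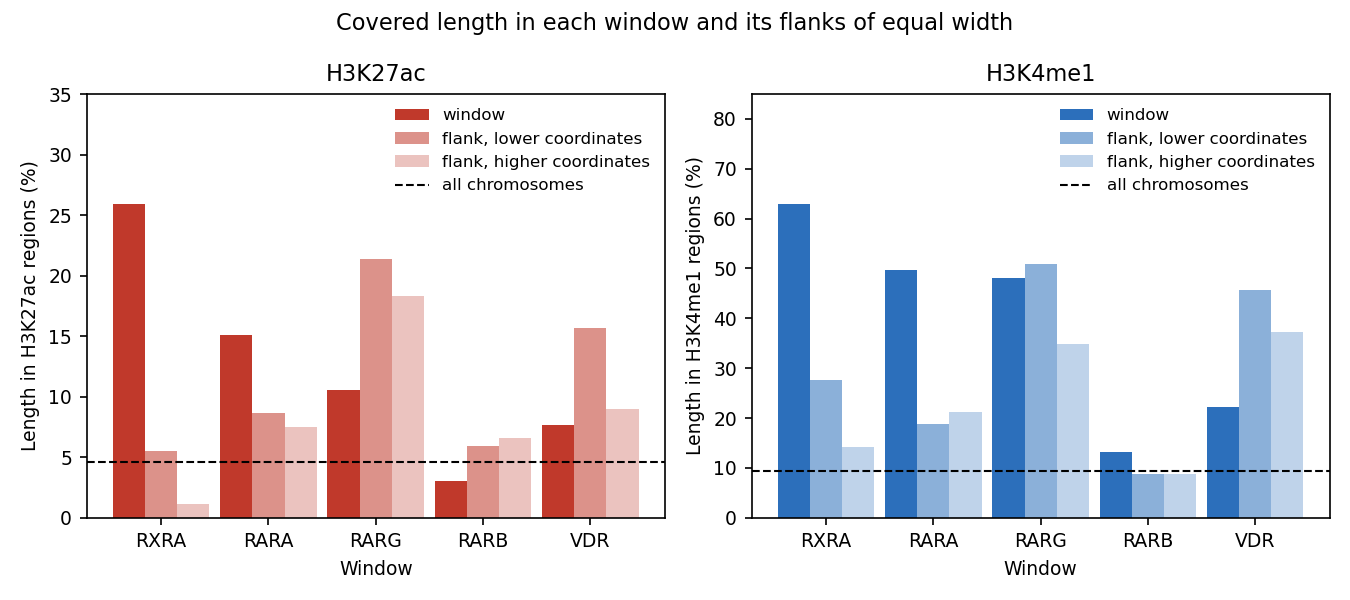
Percent of length in called regions for H3K27ac (left) and H3K4me1 (right) in each window (dark bars) and in its flanks of equal width at lower and higher coordinates (paler bars), with the level over all chromosome spans as a dashed line. The RXRA and RARA windows stand above both flanks for both marks, while the VDR window stands below both.

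Neither mark was spread evenly over RXRA, which encodes the receptor that pairs with all the others. The 7 H3K27ac regions covered 46.8 kb, and 1 of them, chr9:137245901-137272200, made up 56.3% of that length. At 26.3 kb it ranked 43rd in width among the 71077 H3K27ac regions, and it carried the lowest score of the list, 0.001. It lay wholly inside the H3K4me1 region chr9:137240501-137283350, which at 42.9 kb was the second widest of that list and was 67.6% covered by H3K27ac. Joining H3K27ac regions at most 12.5 kb apart gave a cluster of 3 regions, chr9:137244351-137280050, with 29.0 kb of H3K27ac, which ranked 284th of 37027 clusters (0.770% were as long). The other 2 regions at the lowest score, chr9:137216751-137222600 (5.85 kb) and chr9:137295651-137302200 (6.55 kb), lay on either side of the wide region. The first of these was 93.2% in H3K4me1 and had an interior break of 400 bp in H3K4me1, from 137218101 to 137218500, between H3K4me1 regions of 2.60 and 16.8 kb. The other H3K27ac regions of the window were 0.55 to 3.95 kb wide. Of the 7 regions, 3 had the lowest score, which 14.3% of the whole H3K27ac list had, and the same 3 were 5 kb or wider, as 4.24% of the list were.

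H3K4me1 at RXRA included several wide blocks. Of the 31 regions, 3 were 10 kb or wider (the third, chr9:137293001-137307200, measured 14.2 kb), a width that 0.329% of the whole list reached. Regions under 1 kb numbered 13, or 41.9%, close to the 44.7% of the whole list. The 6 regions that met H3K27ac held 84.6 kb at a median width of 10250 bp, and the 25 that did not held 28.9 kb at a median of 900 bp. By number, 19.4% of H3K4me1 regions met H3K27ac (exact interval 7.45% to 37.5%), against 34.5% of the whole list. The interval takes neighbouring regions as independent, and a difference of RXRA from the list was not tested. By length, 40.9% of the H3K4me1 lay in H3K27ac regions, which was above the 35.1% of the whole list. The longest stretch with neither mark was 13.7 kb, from 137196351 to 137210000.

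The RARA gene encodes the retinoic acid receptor that is widely expressed and is fused to PML in acute promyelocytic leukaemia. Its window held 9 H3K27ac regions covering 15.1 kb, the most regions of the 5 windows. None reached 5 kb, a width that only 4.24% of the whole list reached. The widest, chr17:38486301-38490050 (3.75 kb, score 0.001), lay wholly inside the widest H3K4me1 region, chr17:38477401-38492700, of 15.3 kb. The 6 H3K27ac regions from 38463601 to 38498650 joined into 1 cluster with 11.5 kb of H3K27ac, which ranked 2071st. H3K4me1 covered 49.7 kb in 15 regions, of which 7 met H3K27ac. Among those that did not was chr17:38500851-38506150, at 5.30 kb one of a pair of H3K4me1 regions of 5 kb or more without H3K27ac in the 5 windows. The other end of the window was bare: neither mark was called over the last 19.1 kb. The first H3K27ac region crossed the lower bound, with 1450 of its 1950 bp inside, and 64.1% of it was in H3K4me1.

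The RARG gene encodes the retinoic acid receptor best known from skin and other epithelia. The share of the window in H3K4me1 was close to that at RARA, and H3K27ac lay in narrow but closely spaced regions. The 5 H3K27ac regions covered 5.30 kb with a median width of 750 bp, and 3 were under 1 kb, against 21.7% of the whole list. Per length they were the most numerous of the 5 windows, at 10.0 per 100 kb. The widest, chr12:53614151-53616200 (2.05 kb), was the only one with a score at or below the list median of 0.009, so that on such scores the H3K27ac cover of the window fell to 4.10%, below the 7.71% of the VDR window. H3K4me1 covered 24.0 kb in 9 regions, and the widest, chr12:53609351-53619600 (10.3 kb), held 3 of the 5 H3K27ac regions and was 33.2% covered by them. The other region of 5 kb or more, chr12:53586251-53593450 (7.20 kb), crossed the lower bound and met no H3K27ac. H3K27ac length was 0.221 times that of H3K4me1, the lowest such ratio of the 5 windows, against 0.492 over the whole lists. This place in the order rests on the window bounds, since with 50 kb added at both ends of every window the RARG ratio was 0.376, the highest of the 5. No stretch with neither mark was longer than 6.40 kb, from 53628001 to 53634400.

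The RARB gene encodes the receptor that retinoic acid induces through the element printed above. Its window was the longest, and the smallest share of its length was marked. The 5 H3K27ac regions covered 7.05 kb of 230 kb, and 4 of them lay in the lower part of the window, from 25453351 to 25513950. These 4 were 0.85 to 1.75 kb wide with scores from 0.009 to 0.02, and 3 of them joined into a cluster from 25499601 to 25513950 that spanned 14.4 kb and held 3.50 kb of H3K27ac. After them no H3K27ac was called for 124 kb, from 25513951 to 25638400, or 54.1% of the window. The fifth region, chr3:25638401-25640950, was the widest at 2.55 kb and had the lowest score of the window, 0.002. It was 31.4% in H3K4me1, the lowest share of the 30 H3K27ac regions in the 5 windows, and its first 1750 bp held no H3K4me1. An H3K4me1 region of 1.85 kb, ending at 25638300, lay just before it, and another of 1.05 kb overlapped its end. TOP2B, which encodes a DNA topoisomerase, follows RARB in the GRCh38 gene order, and the region was not assigned to either gene.

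Few H3K4me1 regions at RARB had low scores, and none reached 5 kb, a width that only 2.45% of the whole list reached. The 29 regions covered 30.5 kb and the widest measured 2.20 kb. Regions under 1 kb numbered 15, or 51.7%, close to the 44.7% of the whole list, and the median width of 950 bp was close to the 1050 bp of the list. Only 3 of the 29 regions (10.3%) had a score of 0.003 or less, against 27.8% of the whole list. The share was 29.0% in the RXRA window, 53.3% (8 of 15) in the RARA, 44.4% in the RARG and 37.5% in the VDR window. On scores at or below the list medians, the cover of the window fell to 1.87% in H3K27ac and 5.59% in H3K4me1. H3K27ac was met by 6 of the 29 regions (20.7%, exact 95% interval 7.99% to 39.7%), against 34.5% of the whole list. This interval also takes regions as independent, and a difference of RARB from the list was not tested. Neither mark covered 85.8% of the window, against 36.8% for RXRA.

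The VDR gene encodes the receptor of calcitriol. Its H3K27ac regions lay at both sides of a long stretch without H3K27ac. A single region, chr12:48212701-48214800 (2.10 kb), lay near the lower bound, and 3 regions of 2000 to 2850 bp lay between 48289601 and 48299750, with 74.8 kb free of H3K27ac between these places. The 3 regions formed a cluster with 7.15 kb of H3K27ac, which ranked 4481st. All 4 had scores of 0.004 to 0.009, and no H3K27ac region of the window was narrower than 2000 bp. The widest H3K4me1 region, chr12:48292951-48300050 (7.10 kb), held parts or all of 2 of the 3 clustered regions, and 67.6% of it was in H3K27ac. Of the H3K4me1 regions wholly inside the stretch without H3K27ac, the widest measured 2.20 kb. No stretch with neither mark was longer than 13.25 kb. H3K4me1 covered 26.6 kb in 16 regions, and neither mark was called over 77.6% of the window. HDAC7, which encodes a histone deacetylase, precedes VDR in the GRCh38 gene order, and the region near the lower bound was not assigned to either gene.

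**Figure D3:**
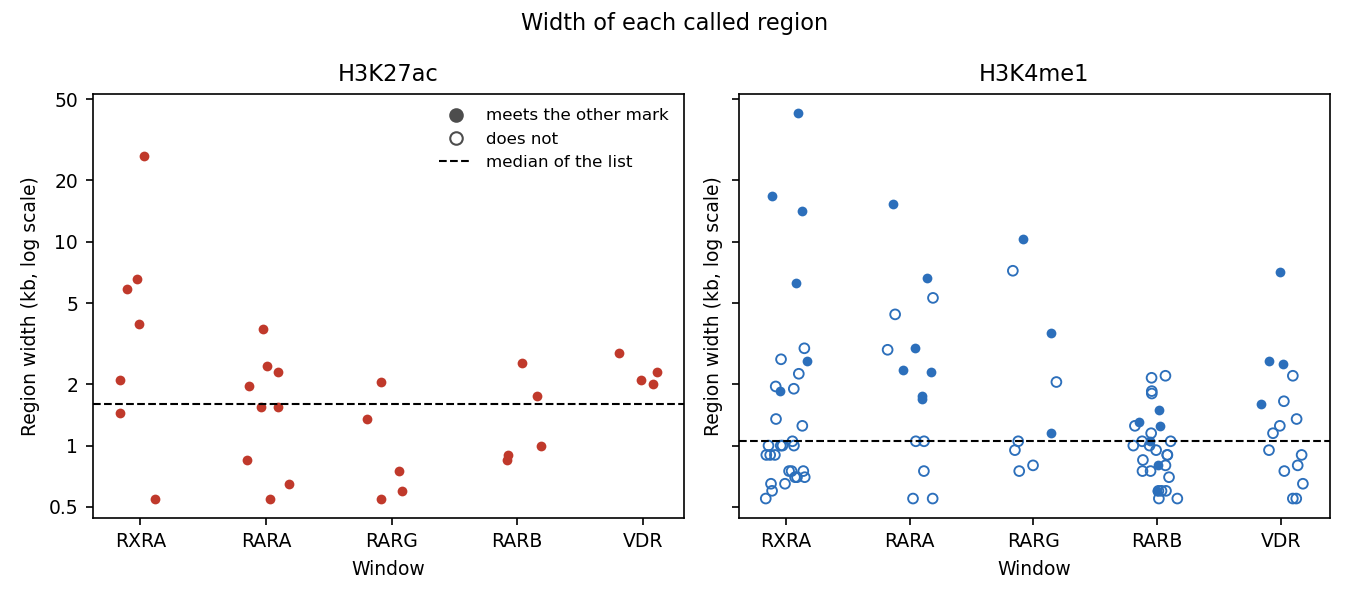
Width of each called region in kb on a log axis, by window, for H3K27ac (left) and H3K4me1 (right), with filled points for regions that meet the other mark, open points for those that do not, and the median of the whole list as a dashed line. All H3K27ac points are filled, and the open H3K4me1 points lie mostly at narrow widths.

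Every H3K27ac region in the 5 windows met an H3K4me1 region by at least 1 bp. This was 30 of 30 (exact 95% interval 88.4% to 100%, over regions taken as independent, counting error only), against 83.1% of the whole list. The 9 regions under 1 kb were among them (9 of 9, interval 66.4% to 100%), against 62.8% of such regions in the whole list. In the whole list wide H3K27ac regions met H3K4me1 more often, at 99.0% of those of 4 kb or more. These windows were rich in H3K4me1, and the part of width or of H3K4me1 cover in the count was not tested. Of the 100 H3K4me1 regions 10 were 5 kb or wider, against 2.45% of the whole list. Of the 30 H3K27ac regions, 19 lay wholly inside H3K4me1 regions, against 33.1% of the whole list. They were 6 of 7 at RXRA, 6 of 9 at RARA, 4 of 5 at RARG, 2 of 5 at RARB and 1 of 4 at VDR. By length, H3K4me1 covered 99.1% of the H3K27ac at RXRA, 93.7% at RARA, 98.1% at RARG, 70.9% at RARB and 96.8% at VDR, against 71.5% over the whole list. At RARB the fifth region held 1750 of the 2050 bp of H3K27ac without H3K4me1 there.

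For H3K4me1 the share that met the other mark was lower than for H3K27ac, as in the whole lists. Of the 100 H3K4me1 regions, 26 (26.0%, interval 17.7% to 35.7%) met H3K27ac, against 34.5% of the whole list. The share of the whole list lies inside that interval, and a difference was not tested. The shares were 6 of 31 at RXRA, 7 of 15 at RARA, 3 of 9 at RARG, 6 of 29 at RARB and 4 of 16 at VDR, and their exact intervals overlapped. In each window the H3K4me1 regions that met H3K27ac were the wider ones by median, from 1150 bp against 900 bp at RARB to 10250 bp against 900 bp at RXRA, as in the whole list (1700 bp against 900 bp). The H3K27ac length divided by the H3K4me1 length over the 5 windows was 0.342, against 0.492 over the whole lists, and lay between 0.221 and 0.412 in the single windows, with an order that changed when the windows were widened. H3K4me1 without H3K27ac was the larger marked part of every window, at 37.3% of the RXRA, 35.5% of the RARA, 37.6% of the RARG, 11.1% of the RARB and 14.7% of the VDR window. The share without H3K27ac was thus alike at RXRA, RARA and RARG, and the windows differed in the part with both marks, which was 25.8%, 14.2% and 10.4% there.

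**Figure D4:**
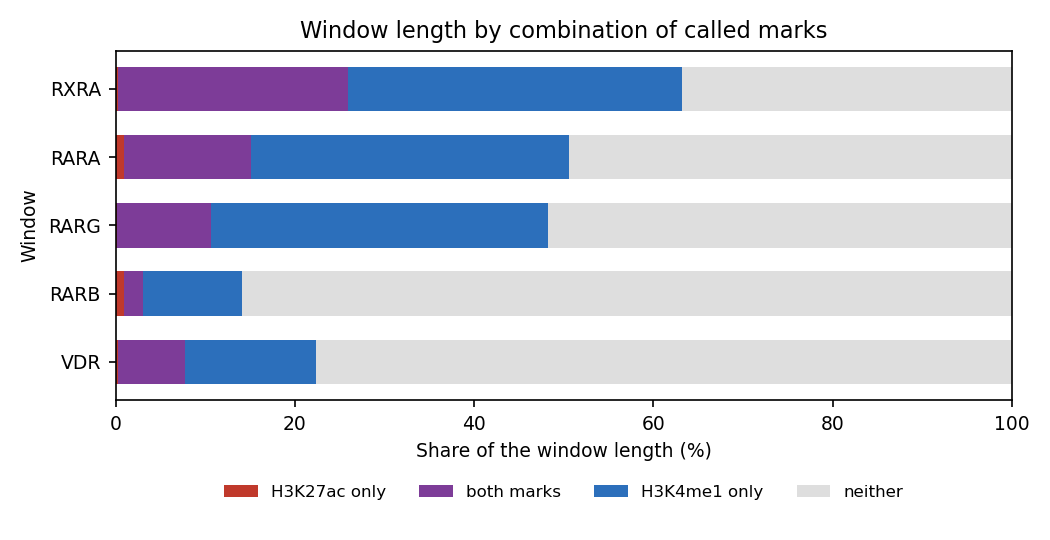
Share of each window's length in H3K27ac regions only (red), in regions of both marks (purple), in H3K4me1 regions only (blue) and in neither (grey), in percent. The part with both marks runs from 25.8% at RXRA to 2.17% at RARB, and H3K27ac without H3K4me1 is under 1% of every window.

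The regions nearest the window bounds were counted as follows. A single H3K27ac region, at RARA, and a single H3K4me1 region, at RARG, crossed a bound and were cut to the window for lengths. Just outside, the nearest H3K27ac regions were 650 to 4550 bp wide and lay 500 bp (below the RARB window) to 33.0 kb (above the RARA window) from a bound. Just inside, the nearest H3K27ac regions that crossed no bound lay 2.70 to 31.9 kb from it and were 0.55 to 3.95 kb wide.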

How the data were processed

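ChIP-seq of H3K27ac and of H3K4me1 in LNCaP cells was analysed, with 1 library each. Reads were aligned with Bowtie 0.12.8 to hg19, per the submitters' processing notes. How regions were called, at which threshold and whether against the input is not given in the sources used here. Deposited lists hold coordinates of regions and, for each, a score from the authors without a name. The score is at most 0.048 for H3K27ac and 0.093 for H3K4me1. What it measures is not stated, and low scores were taken as more stringent. No region is under 550 bp wide, and all bounds lie on a grid of 50 bp, so the caller and its limits shape counts and widths. 1 mitochondrial region per list was left out.

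The members, the windows and the lists were chosen with earlier results of these data known. Starts were read as 0-based and are printed counted from 1. Lengths were clipped to the window and widths were not. Percentages of all spans use 3093 Mb, the summed last ends of the lists by chromosome. Sequence where no region could be called was not taken out of the spans or the tiles. Intervals are exact Clopper-Pearson 95% and take regions as independent. The interval code was tested on simulated data. The rule for naming took the widest and the lowest-scored regions, H3K4me1 regions of 5 kb or more and the longest stretches with neither mark. Not all of these are named in the text. The rule also foresaw H3K27ac regions without H3K4me1, of which there were none. Some further regions were named after their values were seen. The other genes of the pathway were not analysed here, since no hg19 annotation was used. Python 3.11.15 was used with scipy 1.17.1, numpy 2.4.6, matplotlib 3.10.9 and pandas 2.3.3.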

Additional observations from a re-analysis of the deposited data

How the results depend on the processing

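Of 49 alternative values for the 5 windows together, 2 moved, a value having moved when it left the exact interval of its share or changed more than 1.5-fold. H3K27ac covered 12.3% of the 5 windows, and 7.34% without the RXRA window, so that 1 locus carried much of the sum. The share of H3K4me1 regions meeting H3K27ac, 26.0%, was 17.0% with an overlap of 50% or more required. A stricter rule can only lower such a share, and the share of the whole list under it is not given here. Of 50 alternative values for single windows, 4 moved: the H3K27ac cover of RARG, 10.6%, to 4.10% at scores up to the list median and to 16.8% in the widened window, and the RARB covers, 3.07% and 13.3%, to 1.87% and 5.59% at scores up to the list median. RXRA stayed first and RARB last in percent cover by both marks under these settings. RARG passed below VDR in H3K27ac at scores up to the median, above RARA in both marks in the widened windows, and above RARA in H3K4me1 (48.0% against 47.8%) with H3K4me1 scores under 0.05. The ratio of H3K27ac to H3K4me1 cover at RARG, 0.221 and the lowest, was 0.376 and the highest in the widened windows, and 0.105 at scores up to the list median. All alternatives were planned. No paired analysis was possible because there is 1 library per mark. Unknown depth and an unnamed score limit what bare stretches can show.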
